A study of Mus musculus with 13 samples.

Results

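The genes described here encode the surface enzymes that degrade nicotinamide adenine dinucleotide (NAD) and ATP, the enzymes that consume adenosine and inosine, and DPP4, a surface peptidase to which adenosine deaminase binds. They were read in EPLMs, progenitors of the bone marrow with lymphoid as well as myeloid potential, from mice with enforced expression of the transcriptional coactivator OBF1. Of 10 proposed genes (Cd38, Bst1, Entpd1, Nt5e, Ada, Adk, Pnp, Adora2a, Adora2b and Dpp4), 8 could be followed. They are read by 21 of the 45037 probe sets on the array, a probe set being a group of short oligonucleotides that reads 1 transcript. All probe sets that the platform annotation assigns to 1 of these symbols alone were taken. This gave 20 probe sets of 7 genes, and the single Cd38 probe set was named through the study's own gene list. Adora2a and Adora2b, both adenosine receptors, have no probe set under their symbols in that annotation and were not analysed here. The genes were chosen from the differences between BCS and WT EPLMs on these same arrays, of which the low Cd38 and the high Ada of BCS mice were known beforehand. The BCS and WT values of the 8 genes are therefore a description. Whether their probe sets passed the threshold used for the whole array is stated only to place them among all probe sets, and is no evidence for a difference apart from the values that chose them.

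BCS mice carry a human OBF1 cDNA that encodes the nuclear p34 isoform with a C-terminal HA tag, driven by an immunoglobulin heavy chain variable region promoter and the Eμ enhancer, and they are compared with WT littermates on a B6CF1 x C57BL/6 background. Several founder lines were made, and the line behind the arrays is not given in the sources used here. EPLMs were sorted from the bone marrow of 7-week-old mice as B220+ c-kit+ CD93+ cells that lack NK1.1, and the RNA of each mouse was put on its own Affymetrix mouse GeneChip, with 3 WT and 3 BCS mice. A further 7 arrays hold Large PreB cells (3 WT and 4 BCS mice) and were not used, since their values do not follow the names of the probe sets: their mean levels had r = 0.0944 with those of EPLMs across all probe sets, and r = 0.978 across the 64 control features, and these probe sets and features are not independent replicates.

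Intensities are on the linear scale of the GCRMA normalization, where every EPLM array has a median of 20, and WT replicate 1 has an upper quartile of 337.5. Probe sets that stayed below 50 on all 6 arrays are called dim here. A log2 difference is the BCS minus the WT mean of log2(intensity + 1), and a probe set was called when its Benjamini-Hochberg adjusted p over all 45037 probe sets, from limma, was under 0.05. Pou2af1, the mouse gene of OBF1, had intensities of 6278, 7250 and 3400 in WT mice and of 10780, 10860 and 10320 in BCS mice, so the groups did not overlap. Whether this mouse probe set also reads the human transgene was not tested. Of the sort markers, Kit read 480.9 ± 26.5 in WT and 477.2 ± 20.4 in BCS EPLMs (means ± SD, n = 3 mice each) and Cd93 was bright in both genotypes, while Ptprc, which encodes CD45, of which B220 is a form, had a log2 difference of -0.40 (standard error 0.07, limma adjusted p 0.0101). Klrb1c, which encodes NK1.1, was not analysed here.

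Extracellular nucleotides act on cells of the immune system, and surface enzymes set how long they last. CD38 and its paralogue BST1 cleave NAD to ADP-ribose and its cyclic form, CD39 (Entpd1) trims ATP and ADP to AMP, and CD73 (Nt5e) turns AMP into adenosine, which signals through the adenosine receptors. Adenosine deaminase (Ada) converts adenosine to inosine, adenosine kinase (Adk) converts it back to AMP inside the cell, and purine nucleoside phosphorylase (Pnp) splits inosine and guanosine. Loss of ADA or of PNP causes immunodeficiency in humans, and CD38 and BST1 are used as surface markers of lymphoid and myeloid cells.

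Promoters of 8 of the 10 proposed genes were found in the RefSeq table (GRCm38.p6), and those of Bst1 and Adora2a were not. OBF1 is recruited to octamer motifs through Oct1 and Oct2, so the windows from 250 bases before to 50 bases after the start were searched on both strands for the octamer ATGCAAAT, and for the E-box CAGGTG, which E2A proteins bind. No window of these genes held the octamer, which occurred in 1.74% of the 32851 promoters in the table. The E-box, which occurred in 20.2% of them, was found at 2 places in the Ada window and at 1 place in the upstream of the 2 Entpd1 windows. A letter match is a description, and the lack of one says only that these letters are not in the window. The 250 bases before the start are shown for the genes with a single probe set used here that was called between BCS and WT mice. They run 5′ to 3′ on the strand of the gene, with E-boxes in capitals. They lie at chr5:43868559-43868808 (plus strand) for Cd38, chr2:163750240-163750489 (minus strand) for Ada and chr14:50944053-50944302 (plus strand) for Pnp.
Cd38: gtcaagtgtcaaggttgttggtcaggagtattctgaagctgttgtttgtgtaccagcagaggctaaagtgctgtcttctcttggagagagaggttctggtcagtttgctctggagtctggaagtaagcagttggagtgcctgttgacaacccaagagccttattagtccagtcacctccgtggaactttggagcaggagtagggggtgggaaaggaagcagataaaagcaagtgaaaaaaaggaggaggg
Ada: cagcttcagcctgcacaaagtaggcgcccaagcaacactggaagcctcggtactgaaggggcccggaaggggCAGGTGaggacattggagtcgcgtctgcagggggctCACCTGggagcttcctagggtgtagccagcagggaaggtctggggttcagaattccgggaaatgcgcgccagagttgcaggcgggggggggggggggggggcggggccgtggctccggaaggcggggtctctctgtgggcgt
Pnp: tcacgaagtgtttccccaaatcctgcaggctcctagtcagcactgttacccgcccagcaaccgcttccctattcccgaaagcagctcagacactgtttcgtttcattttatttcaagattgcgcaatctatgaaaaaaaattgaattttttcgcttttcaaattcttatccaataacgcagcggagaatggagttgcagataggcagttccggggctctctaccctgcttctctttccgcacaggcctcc

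Of the 21 probe sets, 3 were called higher in BCS EPLMs (Ada, Pnp and 1 of 4 for Dpp4), 1 was called lower (Cd38) and 17 were not called. Over all probe sets, 5.49% were called, 2.24% higher and 3.25% lower. The BCS mice lay above all WT mice for 6 of the 21 probe sets and below them for 1, where 12.6% and 11.2% of all probe sets did so. Since these arrays chose the genes, nothing is read from these shares. The arrays read sorted cells in bulk, so fewer cells of a type and less RNA per cell cannot be told apart. The median log2 difference was 0.06 over the 21 probe sets, 6 of which were dim, and 0.01 over all probe sets. With the brightest probe set of each gene, 2 of 8 genes were higher and 1 was lower, against 3.15% and 4.7% of the 18194 genes. Ada and Cd38 were on the study's own list from these samples, and without them 2 of 19 probe sets were called, both higher. The other genes were chosen with the same arrays in view, so nothing is read from this count either.

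**Figure D1:**
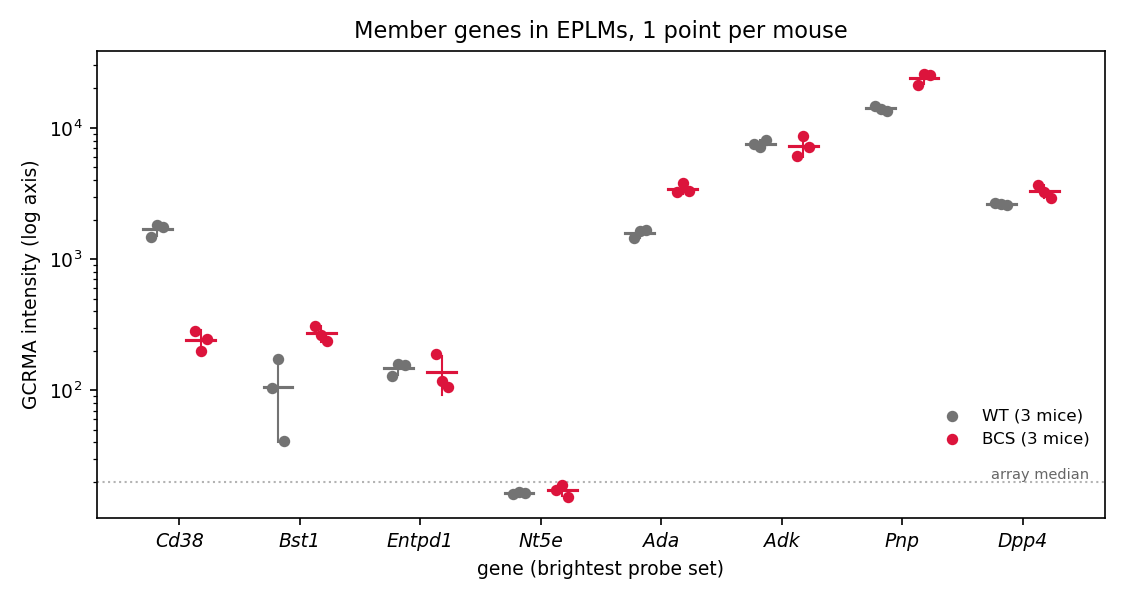
GCRMA intensity (log axis) of the brightest probe set of each of the 8 genes, 1 point per mouse, with WT mice in grey and BCS mice in red, horizontal bars at the mean and vertical bars of 1 SD. The BCS mice lie below the WT mice for Cd38 and above them for Bst1, Ada, Pnp and Dpp4, and both genotypes stay under the array median of 20 (dotted line) for Nt5e. Heights of different genes are not comparable, since each probe set has its own response.

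Among the NAD-degrading ectoenzymes, Cd38 had the largest difference of all 21 probe sets. Its intensity was 1469, 1817 and 1768 in WT mice and 283.6, 197.7 and 247.1 in BCS mice, which gives means of 1685 ± 188.7 and 242.8 ± 43.1 (SD, n = 3 each). The lowest WT mouse lay far above the highest BCS mouse, and the log2 difference was -2.80 (standard error 0.17), a level 6.96-fold lower in BCS EPLMs. Cd38 has 1 probe set under this name, so a second reading of the gene was not at hand.

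Bst1 encodes CD157, which sits in the membrane by a lipid anchor and was first described on bone marrow stromal cells. Its brighter probe set read 104.4, 171.5 and 40.8 in WT mice and 311, 263 and 238.4 in BCS mice. All 3 BCS mice were higher than all WT mice, but the WT mice spread widely, with means of 105.6 ± 65.3 in WT and 270.8 ± 36.9 in BCS EPLMs (SD, n = 3 each), and the log2 difference of 1.57 (standard error 0.44) was not called. The WT mice decided its size: the log2 difference was 2.03 without WT replicate 2, where it was called, and 1.00 without WT replicate 3, where it was not. The other Bst1 probe set read 94.9, 172.3 and 74.4 in WT and 211.1, 161.8 and 138.9 in BCS mice. Here the groups overlapped, and the log2 difference of 0.65 (standard error 0.31) was not called, and it was 0.99 without WT replicate 2 and 0.39 without WT replicate 3.

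Bst1 and Cd38 are neighbours in the RefSeq order of genes, with 0 annotated genes between them. Within each mouse, log2 Bst1 minus log2 Cd38 (brightest probe sets) was -3.80, -3.40 and -5.40 in WT and 0.13, 0.41 and -0.05 in BCS EPLMs. This quantity restates the values above, and compares the genotypes and not the absolute amounts of the 2 transcripts. It differed by 4.36 (standard error 0.63) between the genotypes, and its SD was 1.06 in WT and 0.23 in BCS mice.

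Of the ATP- and AMP-degrading ectoenzymes, neither Entpd1 nor Nt5e was called with any probe set. The brightest Entpd1 probe set read 128.5, 158.3 and 154.4 in WT and 190.5, 117.5 and 105.5 in BCS mice. BCS replicate 1 was above and both other BCS mice below every WT mouse, and the log2 difference was -0.14 (standard error 0.24). The other 2 Entpd1 probe sets differed by 0.28 (standard error 0.19) and -0.06 (standard error 0.18), with overlapping groups. Nt5e read between 8.15 and 18.9 with all 3 probe sets on all 6 arrays, under the array median of 20. Its log2 differences of 0.06, -0.01 and -0.37 are those of dim probe sets, and a change of a low Nt5e level was not detectable with them.

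Ada was higher in every BCS mouse. Its intensities were 1438, 1627 and 1658 in WT and 3250, 3789 and 3307 in BCS EPLMs, with means of 1574 ± 119.2 and 3449 ± 296.2 (SD, n = 3 each). The groups stood well apart, and the log2 difference was 1.13 (standard error 0.11), a 2.19-fold higher level in BCS EPLMs.

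Adk, which consumes the same substrate as Ada, was not called with any of its 6 probe sets. The brightest read 7530, 7201 and 8074 in WT and 6069, 8742 and 7160 in BCS mice. The BCS mice spanned the whole WT range, and the log2 difference was -0.07 (standard error 0.12). The next probe set read 654.5 to 824.1 in WT and 543 to 940.5 in BCS mice, a log2 difference of -0.03 (standard error 0.21). Another differed by 0.84 (standard error 0.30), with intensities of 25.6 to 41.1 in WT and 38.9 to 86.0 in BCS mice that overlapped. The remaining 3 Adk probe sets were dim, with log2 differences between -0.06 and 0.04.

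Pnp acts on the product of Ada. It was at 14750, 13910 and 13540 in WT and at 21250, 25880 and 25370 in BCS EPLMs, with means of 14070 ± 622 and 24170 ± 2540 (SD, n = 3 each). Every BCS mouse was above every WT mouse, and the log2 difference was 0.78 (standard error 0.08), a 1.71-fold higher level. Its call was lost when a 2-fold difference of the medians was also required, and with the methods' t-test after adjustment. A near-identical gene, Pnp2, lies in the mouse genome. Whether the Pnp probe set reads it as well is not given in the sources used here. A further probe set lists both symbols and was not used, so its reading is not given.

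Differences in log2 intensity between Ada, Adk and Pnp within each mouse restate the values above, which chose Ada, and are a description. Log2 Ada minus log2 Adk was -2.39, -2.15 and -2.28 in WT mice and -0.90, -1.21 and -1.11 in BCS mice. The genotypes did not overlap, and the difference between them was 1.20 (standard error 0.11). For Pnp minus Adk the corresponding difference was 0.84 (standard error 0.11). For Pnp minus Ada it was -0.35 (standard error 0.12), as Ada differed by more than Pnp.

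DPP4 (CD26) cleaves dipeptides from chemokines and other peptides. The brightest Dpp4 probe set read 2663, 2626 and 2580 in WT and 3681, 3239 and 2921 in BCS mice. The BCS mice were all higher, but their spread was much wider than that of the WT mice, and the log2 difference of 0.32 (standard error 0.11) was not called. The probe set that was called read 442.2, 516.9 and 500.3 in WT and 921.3, 825.9 and 846.9 in BCS mice, a log2 difference of 0.83 (standard error 0.14) or 1.78-fold. As for Pnp, this call was lost with the 2-fold limit and with the methods' t-test. The other 2 differed by 0.24 (standard error 0.11, groups overlapping) and 0.35 (standard error 0.17, groups apart). All 4 Dpp4 probe sets thus had a higher mean in BCS EPLMs, by amounts from 0.24 to 0.83 on the log2 scale.

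**Figure D2:**
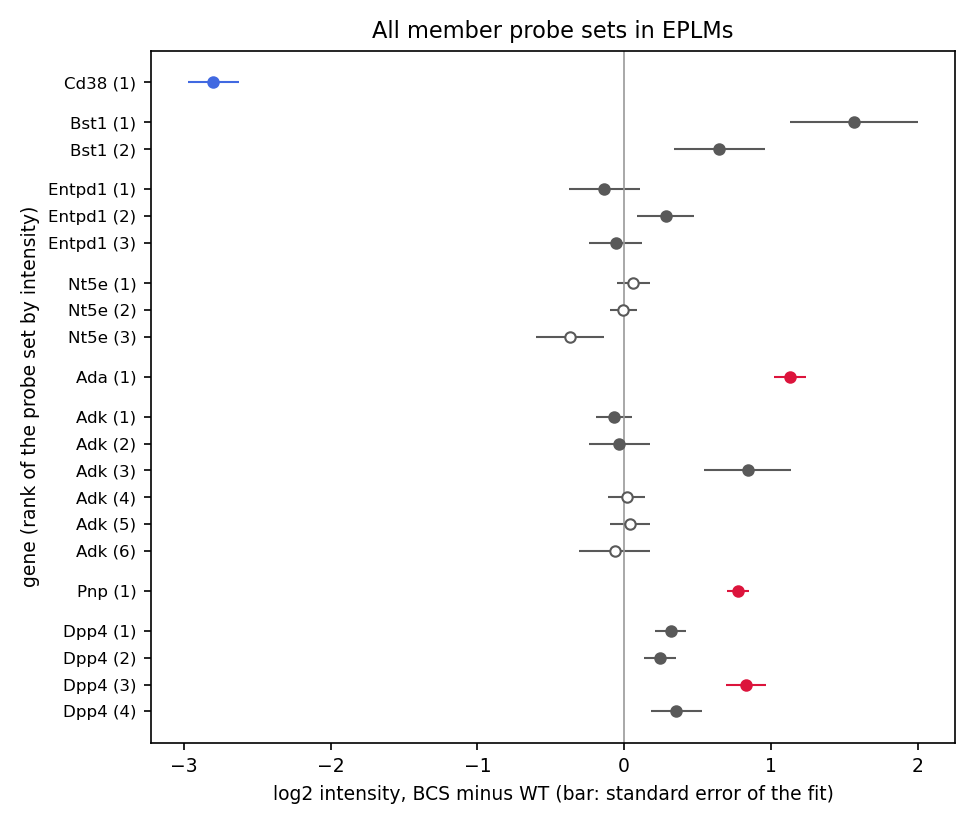
Log2 difference between BCS and WT EPLMs for all 21 probe sets, 3 mice per genotype, ordered by gene and by intensity within a gene; bars are the standard errors of the fit. Red points were called higher in BCS, the blue point was called lower, grey points were not called and open points are dim probe sets. Cd38 stands at -2.80, Ada at 1.13 and Pnp at 0.78, and the probe sets of Adk and Dpp4 show how readings of 1 gene vary.

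Further genes around these enzymes were grouped by function into 8 lists of 128 genes, drawn up with earlier results of these data known, and each gene was read by its brightest probe set. Of the 114 that were measured, 11 were higher and 13 lower in BCS EPLMs, 90 were not called and 41 were dim. Over all 18194 genes 3.15% were higher and 4.7% lower, and the counts of each list below stand beside these shares. The median log2 difference was 0.01, as over all genes (0.01). The adjusted p-values below are from limma over all probe sets. Leaving out 1 mouse at a time, 14 of the 24 calls held in all 6 fits. The other 10 were lost in at least 1 fit (adjusted p from 0.0511 to 0.17) as follows. Abcc4 was lost whichever mouse was left out. The others lost were Gnas, P2rx4, Prkar2a and Slc29a3 without WT replicate 1, Alpl, Art5, Gnas, Prkar2a, Prps1 and Slc29a3 without WT replicate 2, and Ahcyl2, Alpl, Gnas, Nnt, P2rx4, Prkar2a, Prps1 and Slc29a3 without WT replicate 3. Among BCS mice they were Prkar2a without replicate 1, Ahcyl2, Alpl, Gnas, Nnt, P2rx4 and Prps1 without replicate 2, and Art5, Gnas, Nnt, P2rx4, Prkar2a, Prps1 and Slc29a3 without replicate 3.

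The other purinergic receptors were the list with the most calls, 1 of 16 higher and 5 lower, with a median of -0.15. P2rx7, an ATP-gated channel, read 380.9, 559.7 and 612 in WT and 106.6, 36.0 and 50.3 in BCS mice, a log2 difference of -3.11 (standard error 0.37, limma adjusted p 0.00163), and 2 of its 3 probe sets were lower. The groups were far apart, but BCS replicate 2 was below 50 and BCS replicate 3 close to it, so the size of the difference was not well resolved. P2ry13, a receptor for ADP, read 1271, 1077 and 1568 in WT and 361.8, 138.8 and 373.7 in BCS mice, a log2 difference of -2.27 (limma adjusted p 0.00669). P2ry12, another ADP receptor, was also called lower (limma adjusted p 0.00127), at 157.3, 87.7 and 91.9 in WT and 25, 23.5 and 17.4 in BCS mice. The BCS readings of P2ry12 lay around the array median of 20, so the size of its difference was not resolved. P2ry14, a receptor for UDP-sugars, and P2rx4, another ATP-gated channel, were also lower, by -1.34 and -1.07 (limma adjusted p 0.00471 and 0.0272), and are named after their values were seen. P2rx4 lost its call in 4 of the 6 fits without 1 mouse (limma adjusted p from 0.0852 to 0.105).

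P2rx3, an ATP-gated channel best known from sensory neurons, differed in the other direction. It read 300.9, 584.2 and 428.1 in WT and 3188, 2025 and 1374 in BCS mice, a log2 difference of 2.29 (standard error 0.32, limma adjusted p 0.00386). All 3 of its probe sets were higher and the groups did not overlap. Adora3, the adenosine receptor that was measured, was dim and had a log2 difference of -0.38 that was not called. P2ry10, named after its values were seen, read 2915 ± 675.3 in WT and 2111 ± 192.8 in BCS EPLMs (SD, n = 3 each), with overlapping groups and no call.

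Of the other nucleotide ectoenzymes, 2 of 10 were higher and 0 lower. Entpd5, which hydrolyses UDP and GDP in the secretory pathway, read 846, 989.2 and 951.5 in WT and 2943, 3072 and 2831 in BCS mice. Its groups were far apart, the log2 difference was 1.67 (standard error 0.11, limma adjusted p 8.39e-05), and all 6 probe sets were higher. Alpl, the tissue-nonspecific alkaline phosphatase, was called higher by 0.85, but was dim.

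Of the NAD list, 2 of 21 genes were higher and 1 lower. Nmrk1, a kinase that turns nicotinamide riboside into a precursor of NAD, read 292.1 ± 29.7 in WT and 697.6 ± 146.9 in BCS EPLMs (SD, n = 3 each). Its log2 difference was 1.24 (standard error 0.19, limma adjusted p 0.0069), and its other 2 probe sets were dim and not called. The dim Art5, an ADP-ribosyltransferase, was higher by 0.59, and Nnt, the mitochondrial transhydrogenase that exchanges reducing power between NAD and NADP, differed by -0.38.

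In the list of de novo purine synthesis, 3 of 10 measured genes were called higher and 0 lower. The mean was higher in BCS EPLMs for all 10, with a median of 0.31, against 0.01 over all genes. Impdh2, Adss1 and Adss2 of this list were not measured. Prps1 and Prps2, which make the phosphoribosyl pyrophosphate that starts the pathway, differed by 0.63 and 0.43 (limma adjusted p 0.0185 and 0.00256), and all 3 probe sets of Prps2 were called. Impdh1, which directs the pathway to guanine nucleotides, rose from 137.2 ± 29.6 to 336.6 ± 18.2 (SD, n = 3 each), a log2 difference of 1.31 (standard error 0.20, limma adjusted p 0.00547). Of purine salvage and breakdown, 1 of 23 genes was higher and 2 were lower. Hprt, which salvages hypoxanthine and guanine, differed by 0.47 (limma adjusted p 0.0087). Samhd1, which degrades deoxynucleotides, differed by -1.25 (limma adjusted p 0.00203), with 4 of 5 probe sets lower, and Ahcyl2, a relative of the enzyme that splits adenosylhomocysteine, differed by -0.86.

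Among the transporters 1 of 7 was higher and 1 lower, Abcc4 (log2 difference 0.52), which exports cyclic AMP, and Slc29a3 (log2 difference -0.81), a nucleoside transporter of lysosomes. The Abcc4 call was lost in each of the 6 fits without 1 mouse (limma adjusted p from 0.0673 to 0.17). Adenosine receptors act through cyclic AMP, and of 20 genes of that route 1 was higher and 3 were lower, with a median of -0.09. Rapgef3 (EPAC1), a cyclic AMP sensor, read 271.4, 244.5 and 463.9 in WT and 1632, 937.7 and 1069 in BCS mice, a log2 difference of 1.91 (standard error 0.28, limma adjusted p 0.00507), and 3 of its 5 probe sets were higher. Adcy7, an adenylate cyclase, read 15400, 15860 and 16120 in WT and 9669, 8454 and 9311 in BCS mice, a log2 difference of -0.79 (standard error 0.06, limma adjusted p 0.000207), and all 3 of its probe sets were lower. Neither gene had overlapping groups. Prkar2a, a regulatory subunit of protein kinase A, and Gnas, the stimulatory G protein, differed by -0.98 and -0.28. Of their probe sets, 1 of 4 and 1 of 5 were called. Both calls were lost in 5 of the 6 fits without 1 mouse. Of 7 peptidases related to DPP4, Dpp7 alone was called, with 360.1, 373.2 and 382.8 in WT and 99.7, 143.7 and 156.8 in BCS mice, a 2.83-fold lower level (limma adjusted p 0.00324).

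**Figure D3:**
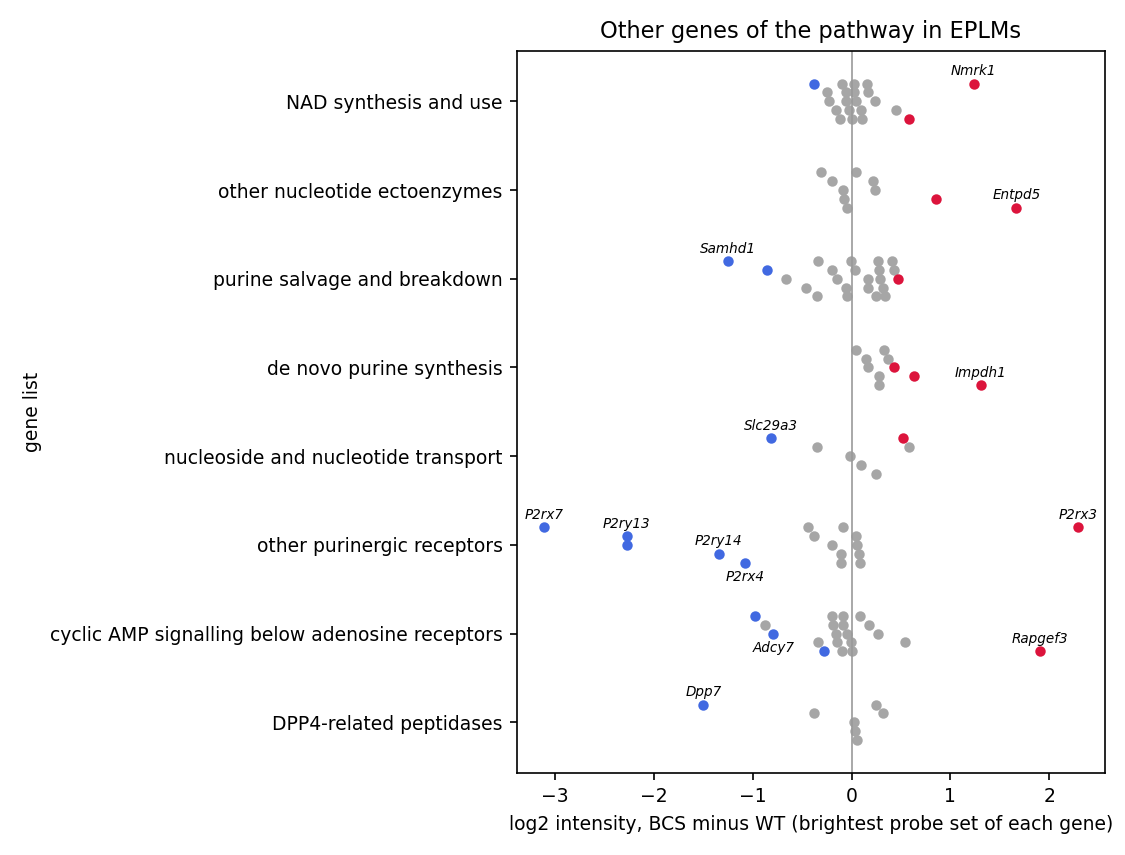
Log2 difference between BCS and WT EPLMs (brightest probe set, 3 mice per genotype) for the 114 measured genes of 8 function lists, 1 point per gene; red points were called higher in BCS, blue points lower and grey points not called, and vertical offsets only separate the points. Calls of both directions occur, from P2rx7 at -3.11 to P2rx3 at 2.29, and all 10 genes of de novo purine synthesis lie above 0.

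Marker lists of other cell types that the sort could hold were read in the same way. The sums of intensity over marker lists, which the brightest genes dominate, also moved with genotype. The list of plasmacytoid dendritic cells summed to 93670 to 104600 in WT and to 43250 to 57210 in BCS mice. Of its 13 measured genes 10 were lower and 0 higher, and Tlr9 was dim. The B lineage list summed to 86960, 108300 and 80270 in WT and to 144400, 130100 and 142100 in BCS mice, with 7 of 15 genes higher and 1 (Fcrla) lower. WT replicate 2, which had the highest WT intensity of Bst1, also had the highest WT sum of the B lineage, T cell, NK, myeloid and erythroid lists.

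The NK list summed to 8332 to 15330 in WT and to 1498 to 4335 in BCS mice, with 2 of 11 genes lower, 0 higher and Klrk1 dim. The lower genes were Klrk1 and Klrd1, the brightest gene of the list in every WT mouse (mean 7651 in WT and 1608 in BCS EPLMs). The groups overlapped for each NK gene that was not called, while the BCS mean was lower for all 11. The T cell list summed to 794.9 to 1878 and 2068 to 2738, with 2 of 10 genes higher, 1 lower and Cd3e and Zap70 dim. The 2 higher genes were Thy1 (632.7 in WT and 1657 in BCS EPLMs) and Lat (114.9 and 443.5), while the BCS mean was lower for 7 of the 10 genes and the median log2 difference was -0.19. The groups overlapped in the myeloid sum, at 30510 to 106300 and 11460 to 70800 (2 of 15 genes lower, 0 higher, with Elane, Itgam and Cebpa dim). They also overlapped in the erythroid and megakaryocyte sum, at 2750 to 9652 and 2161 to 3067 (0 of 10 called, with Hba-a1 and Epor dim). The part of these marker shifts in the values of Cd38, Bst1, Ada, Pnp, Dpp4 and the purinergic receptors was not tested.

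**Figure D4:**
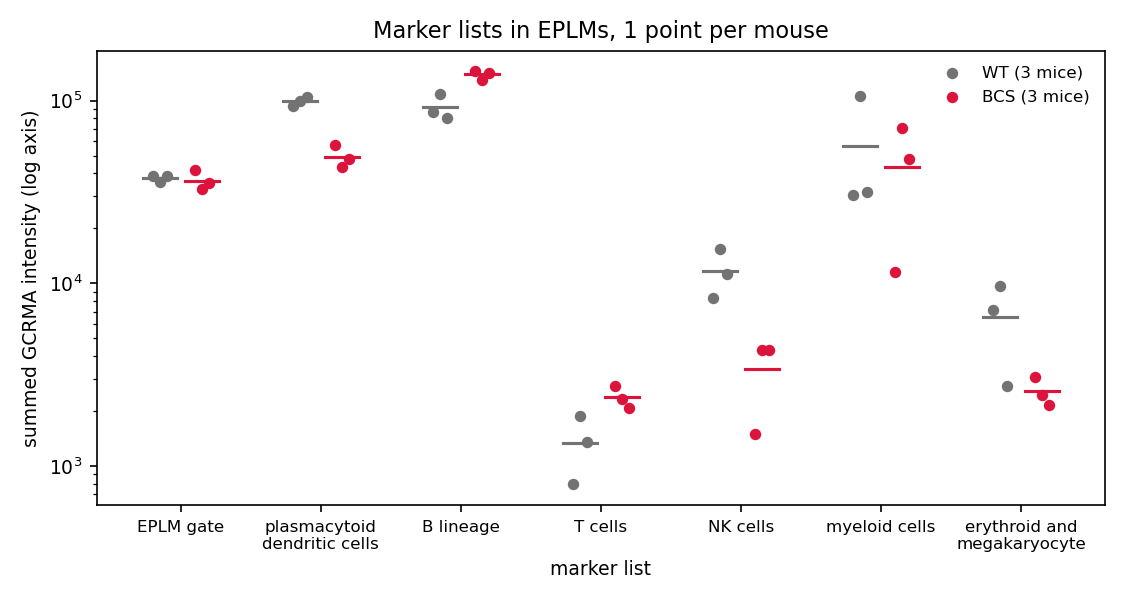
Summed GCRMA intensity (log axis) of the measured genes of each marker list, 1 point per mouse, WT in grey and BCS in red, with a bar at the mean. The BCS mice lie below the WT mice for plasmacytoid dendritic cells and NK cells and above them for the B lineage. Klrd1 was the brightest NK gene in every WT mouse, and the NK genes that were not called had overlapping groups. The BCS mice also lie above the WT mice for the T cell sum. In that sum Thy1 and Lat were higher, while 7 of 10 genes had lower BCS means. The genotypes overlap for the sort markers and for the myeloid and erythroid lists.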

How the data were processed

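EPLMs of 3 WT and 3 BCS mice were used, 1 mouse and 1 array per sample. The authors purified RNA, hybridized it to Affymetrix mouse arrays and deposited GCRMA-normalized intensities on a linear scale (version not given in the sources used here). Their methods state labeling in 2 cycles, while the labels state 1. The values of 45037 probe sets (64 control features left out) were taken as log2(intensity + 1) and fitted with limma 3.58.1 (R 4.3.3, trended variance), with Benjamini-Hochberg adjustment over all probe sets. The EPLM arrays already share nearly the same distribution of values, so no further normalization was applied. Precision is limited by the number of arrays. The platform annotation lists 1 symbol for 34945 probe sets, several for 932 and none for 9160. Genes in lists were read by their brightest probe set of 1 symbol over the 6 arrays. A further marker of the sort is not reported here. A probe set that lists both Pnp and Pnp2 was not used.

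The 10 member genes and the lists were chosen with earlier results of these data known, so no p is given for the member genes and no test is made over a list. Of each function list, up to 4 called genes with the largest difference were named, and others are marked as named after their values were seen. Alternatives were the variance trend, robust fitting, array weights, a filter on dim probe sets (intensity over 50 on at least 3 arrays), an offset of 16, quantile normalization, median centring, the methods' t-test, stricter thresholds, the mean over probe sets, a replicate block and leaving out each mouse. The script was tested on simulated data. Replicate arrays of 1 genotype correlated with r from 0.993 to 0.995.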

Additional observations from a re-analysis of the deposited data

How the results depend on the processing

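The counts of calls in the main analysis were 2472 of all probe sets, 4 of the 21 probe sets of the enzymes and DPP4, 24 of the function lists and 26 of the marker lists. Without the variance trend, with robust fitting, array weights, the dim filter, the offset of 16, quantile normalization, median centring or the mean over probe sets, each count that was computed stayed within 1.5 times of these. Quantile normalization and median centring could change little, since the arrays already shared nearly the same distribution of values, so nothing is read from those settings. The methods' t-test after adjustment left 267, 2, 2 and 4 calls, and at the methods' own threshold (unadjusted p under 0.01 with medians at least 2-fold apart) 864, 2, 11 and 15 passed. An adjusted p under 0.01 left 1057 and 14 calls over all probe sets and the function lists. Requiring a 2-fold difference of the medians left 1156, 2 and 12 over all probe sets, the enzymes and the function lists. The causes were not tested. Leaving out 1 mouse at a time, the counts ranged from 1401 to 2241 for all probe sets, from 4 to 5 for the enzymes, from 15 to 23 for the function lists (15 without WT replicate 3) and from 21 to 27 for the marker lists. Deviations of same-numbered mice correlated with r = 0.00563, 0.0962 and 0.105. With 3 mice per genotype, these values cannot tell whether the replicate numbers pair the mice. A replicate block gave 1920, 4, 21 and 31 calls, with Abcc4, Gnas and Prps1 among those lost. The settings that can move a log2 difference were leaving out a mouse, the offset, both scalings and array weights. Under them, 0 called differences of the 21 probe sets turned sign. Because the groups of the called probe sets did not overlap, leaving out a mouse, the offset or array weights could not turn a sign. Nothing is read from the signs. All 210 recomputed differences moved by less than 1 SD between mice. Leaving out 1 of 3 mice cannot move a difference by that much, so nothing is read from this for those fits. The brighter Bst1 probe set ranged from 1.00 to 2.03. Intensities below 50 carry little signal over background, which limits Nt5e and 3 probe sets of Adk.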
